A study of Mus musculus with 6 samples.

Results

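The genes of MHC class II presentation were followed in activated B cells of *Tent5c* KO and WT mice: the classical chains *H2-Aa*, *H2-Ab1* and *H2-Eb1*, the invariant chain *Cd74*, the transactivator *Ciita*, and the peptide editors *H2-DMa*, *H2-DMb1*, *H2-DMb2*, *H2-Oa* and *H2-Ob*. They were chosen by name as the genes of one pathway, and all 10 are among the 54446 genes of the deposited table and among the 12322 genes that were tested because their normalized counts averaged 10 or more. TENT5C is a cytoplasmic poly(A) polymerase that lengthens the poly(A) tails of mRNAs, and the comparison asks whether mRNAs of B cells differ in level where it is absent. Naive B cells were taken from the spleen by negative magnetic selection and cultured in both genotypes with IL-4 (20 ng/ml) and LPS (20 µg/ml), for 7 days. The mice were KO and WT littermates of 12 to 15 weeks from heterozygous matings, of a strain given as mixed C57BL/6J X CBA, and the 3 replicates, each a KO and a WT mouse of one litter, are called pairs 1, 2 and 3 below. The labels give the replicate number as the batch. The mutation was present in the whole animal and not in B cells alone, and RNA was read from the culture as a whole.

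MHC class II molecules display peptides from the endosomes to CD4+ T cells. An α and a β chain are assembled in the ER with the invariant chain, which fills the groove and directs the complex to endosomes, where proteases degrade it and H2-DM exchanges its last fragment for peptide, while H2-O, made mainly in B cells, inhibits H2-DM. All of these genes are switched on together by CIITA, which binds no DNA itself but docks on RFX, CREB and NF-Y bound to the X and Y boxes of their promoters. Naive B cells express class II at high levels, IL-4 is known to raise it, and cells that become plasma cells silence *Ciita*.

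Of the 10 genes, 8 lie on chromosome 17 of GRCm38 between 34092340 and 34316674, a stretch of 224 kb. To show the boxes that CIITA acts through, the promoter windows of the genes were read from RefSeq (GRCm38.p6, 250 bases before to 50 bases after the transcript start). A window was taken for 7 of the 10 genes, with 8 windows in all since *H2-DMa* has 2. The core of the Y box, TGATTGG, was found on the printed strand in 6 of the 8 windows, beside 7.82% of the 32851 RefSeq windows when both strands were searched. In the 4 windows below it was preceded, 10 to 40 bases upstream, by the start of the X box, GCAAC, an arrangement in 0.289% of all windows (95 of 32851), while GCAAC alone is in 35.2%. These letters were chosen after the windows had been seen, and a match is only a match of letters. Each sequence runs 5′ to 3′ on the strand of its gene, with both cores in capitals.
*H2-Aa* (chr17:34287867-34287923, minus strand): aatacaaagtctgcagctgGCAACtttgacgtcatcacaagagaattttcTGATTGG
*H2-Eb1* (chr17:34305756-34305812, plus strand): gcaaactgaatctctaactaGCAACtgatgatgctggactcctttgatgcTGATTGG
*H2-Oa* (chr17:34092284-34092340, plus strand): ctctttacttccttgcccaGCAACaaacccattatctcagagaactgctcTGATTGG
*H2-Ob* (chr17:34238796-34238852, plus strand): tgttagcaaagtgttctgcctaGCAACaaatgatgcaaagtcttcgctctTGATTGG
The gap between the cores was 26 bases in *H2-Aa*, 25 in *H2-Eb1*, 26 in *H2-Oa* and 23 in *H2-Ob*, and the Y core ended 43, 54, 38 and 52 bases before the start. The windows of *H2-DMb1* and *H2-DMb2* held the Y core without GCAAC, and neither window of *H2-DMa* held either core. Only exact matches were searched, so a window without a match can still hold a box with other letters. The *H2-DMa* windows begin at 34122582 and 34125268, in a gene annotated from 34119541 to 34139101, and no other start of this gene was read.

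Depth was 5393558 to 6793520 fragments on genes per library. All members were counted well above the limit of detection, with 434 fragments at the least (*H2-Oa*) and 27468 at the most (*Cd74*). B cell markers were present in every library: the 9 genes of the list summed to 33808 to 38602 normalized counts where the label was KO and to 32133 to 36684 where it was WT. *Tent5c* itself was at 1993, 993 and 1170 normalized counts in pairs 1, 2 and 3 under the label KO and at 1255, 767 and 1584 under the label WT. Its transcript level did not separate the genotypes, so KO and WT stand below for the libraries that carry these labels. Among the 14 markers of dendritic cells and macrophages, the other cells rich in class II, *Clec9a*, *Siglech* and *Fcgr1* were at 0 in all libraries and 5 of 14 passed the filter, while the list summed to 745 to 1071 normalized counts in KO and 639 to 824 in WT, mostly *Flt3* and *Zbtb46*. The lists for T cells (9 genes), NK cells (3 genes) and erythroid cells (7 genes) summed to at most 112, 10.8 and 5.72. Fewer cells of a type and less RNA per cell cannot be told apart in such bulk libraries.

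Together the 10 genes took about 1 fragment in every 100. In pairs 1, 2 and 3 their share of all fragments was 1.05%, 1.12% and 1.19% in KO and 1.24%, 1.18% and 1.27% in WT. The share was lower in the KO library of each pair, but the groups overlapped, since the KO library of pair 3 lay above the WT library of pair 2. The means were 1.12% ± 0.070 in KO and 1.23% ± 0.044 in WT (SD, n = 3). Without Ig genes in the total they were 1.14% ± 0.068 and 1.26% ± 0.056. The classical chains and *Cd74* made up 80.0% to 83.4% of the fragments on the 10 genes.

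**Figure D1:**
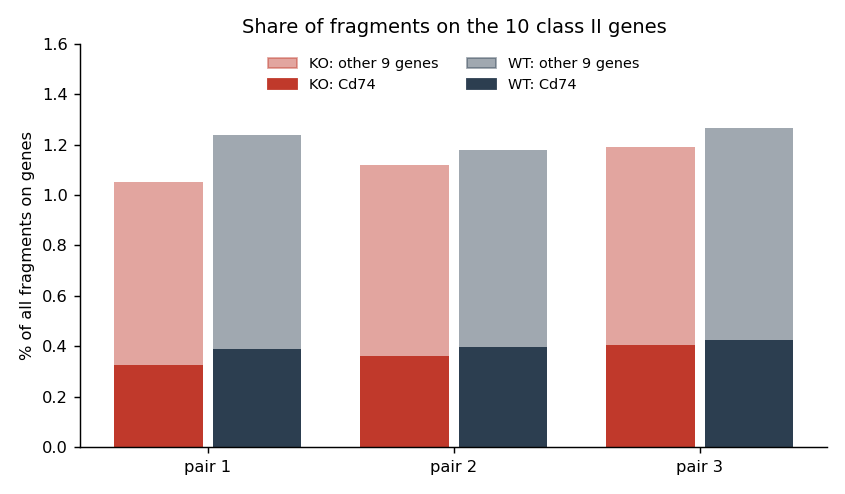
Percent of all fragments on genes that fell on the 10 class II genes (y axis), for the library labelled KO (red) and WT (dark) of each littermate pair (x axis), with the part on *Cd74* in full color and the other 9 genes in a lighter shade; each bar is 1 library. The KO bar is the lower of each pair, at 1.05%, 1.12% and 1.19% against 1.24%, 1.18% and 1.27%.

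Levels between genes were compared as normalized counts per kb of annotated exon, which accounts for their different lengths. *Cd74* stood highest, with 12233 to 16421 per kb, and ranked from 3 to 5 among protein-coding genes, depending on the library. *H2-Eb1* (5010 to 6211), *H2-Aa* (3795 to 4827) and *H2-Ab1* (3201 to 4375) followed. The ranges of *H2-Aa* and *H2-Ab1* overlapped, although *H2-Aa* was the higher in each of the 6 libraries. *H2-DMb2* (1729 to 2117) and *H2-DMa* (684 to 877), the chains of the peptide editor, came next without overlap. *H2-Oa* (371 to 498), *Ciita* (384 to 497) and *H2-Ob* (384 to 506) overlapped and changed order between libraries. *H2-DMb1* (299 to 401) overlapped with their ranges but was the lowest of the 10 genes in each of the 6 libraries. *H2-DMb1* and *H2-DMb2* are near copies of each other. Of their 75-base stretches of transcript, 15.8% and 16.1% occur in another gene as well, fragments from such stretches can be lost to the mapping quality filter, and their levels are uncertain to that extent.

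**Figure D2:**
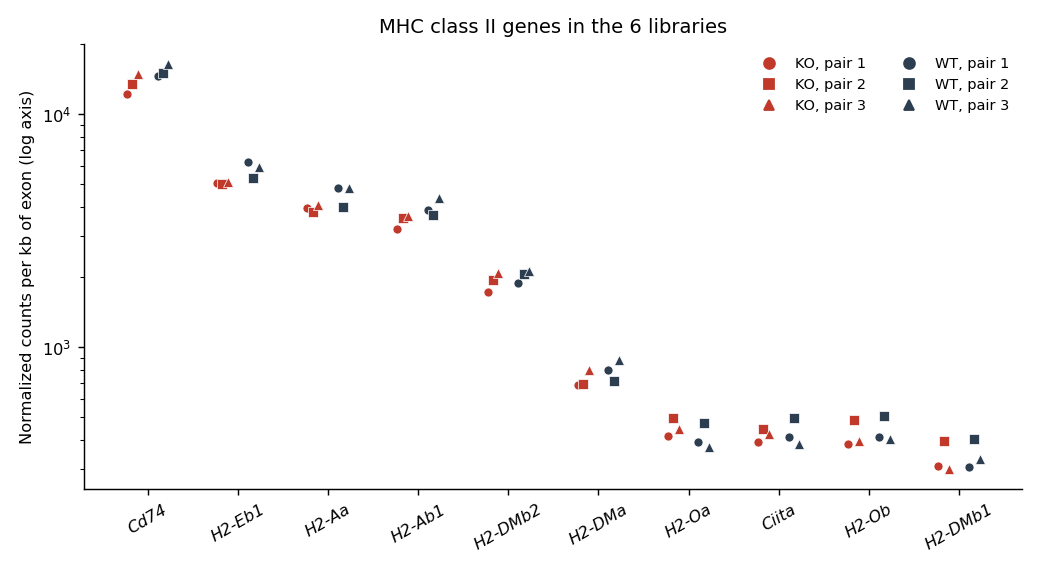
Normalized counts per kb of annotated exon (y axis, log scale) of the 10 class II genes (x axis, in order of their median), with 1 point per library, colored by genotype label and shaped by littermate pair. *Cd74* lies apart at 12233 to 16421, and *H2-Oa*, *Ciita*, *H2-Ob* and *H2-DMb1* lie together between 299 and 506.

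In the comparison of KO with WT, the classical chains and the invariant chain had fitted differences between −0.18 and −0.20 on the log2 scale, which is a KO/WT ratio of 0.87 to 0.88, but none passed the adjusted threshold of 0.05. The test was limma on log2(normalized count + 1) over 12322 genes, with the pair as a block and Benjamini-Hochberg adjustment. No gene of the table passed it (0%), the smallest adjusted *p* being 0.653, and 373 genes, or 3.03%, were lower in KO at an unadjusted *p* under 0.05. The quasi-likelihood test of edgeR also called 0 genes, and DESeq2 called 22 lower and 1 higher, of which 0 were members. With both of these tools, as with limma, 4 members had an unadjusted *p* under 0.05. This count was 0 under total-count scaling, under quantile normalization and without replicate 1, 1 with no replicate block and without replicate 2, and 2 without replicate 3.

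*H2-Aa*, the α chain of the A molecule, had 15084, 14414 and 15511 normalized counts in KO, for pairs 1, 2 and 3 in this order throughout, and 18332, 15154 and 18275 in WT. The WT library of pair 2 lay with the KO libraries, so that the groups overlapped. The KO/WT ratio was 0.823, 0.951 and 0.849 in pairs 1, 2 and 3, and the fitted log2 difference was −0.20 (95% interval −0.37 to −0.02, unadjusted *p* = 0.034, adjusted *p* = 0.970 from limma), with the opposite sign, 0.025, under quantile normalization.

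*H2-Ab1*, the β chain that pairs with it, had 8221, 9249 and 9397 normalized counts in KO and 9926, 9476 and 11235 in WT. All 3 KO values lay below all 3 WT values, by a narrow margin in pair 2. The KO/WT ratio was 0.828, 0.976 and 0.836, and the fitted log2 difference was −0.19 (95% interval −0.36 to −0.01, unadjusted *p* = 0.040, adjusted *p* = 0.970 from limma).

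*H2-Eb1*, the β chain of the E molecule, had 9898, 9740 and 9964 normalized counts in KO and 12075, 10395 and 11498 in WT. The groups did not overlap, and the KO libraries lay much closer to each other (9867 ± 116, SD, n = 3) than the WT libraries (11323 ± 854). The KO/WT ratio was 0.820, 0.937 and 0.867, and the fitted log2 difference was −0.20 (95% interval −0.36 to −0.03, unadjusted *p* = 0.026, adjusted *p* = 0.970 from limma).

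*Cd74*, the invariant chain (chromosome 18, 60803848 to 60812652), had 20538, 22687 and 24941 normalized counts in KO and 24512, 25157 and 27571 in WT. The KO library of pair 3 exceeded the WT library of pair 1, while within each pair KO was the lower. The KO/WT ratio was 0.838, 0.902 and 0.905, and the fitted log2 difference was −0.18 (95% interval −0.36 to −0.01, unadjusted *p* = 0.041, adjusted *p* = 0.970 from limma), with the opposite sign, 0.16, under quantile normalization.

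*Ciita* (chromosome 16, 10480059 to 10528418), the transactivator of all of these genes, had no common direction in the 3 pairs. It had 3730, 4249 and 4039 normalized counts in KO and 3897, 4735 and 3658 in WT, so that the KO library was lower in pairs 1 and 2 and higher in pair 3. The fitted log2 difference was −0.03 (95% interval −0.20 to 0.15, adjusted *p* = 0.989 from limma), with the opposite sign under total-count scaling (0.0086), under quantile normalization (0.017) and without replicate 2 (0.040). The ratio of *H2-Aa* to *Ciita*, per kb of exon, was 10.2, 8.52 and 9.64 in KO and 11.8, 8.03 and 12.5 in WT, a mean log2 difference of −0.17 ± 0.24 (SD, n = 3 pairs) that lies within the spread between pairs.

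Among the editors, *H2-DMa* had 2359, 2391 and 2759 normalized counts in KO and 2754, 2455 and 3025 in WT, with overlap between the groups. Its fitted log2 difference was −0.13 (95% interval −0.28 to 0.02, unadjusted *p* = 0.079, adjusted *p* = 0.970 from limma). *H2-DMb2*, which per kb had 4.91 to 6.97 times the level of the other β chain gene *H2-DMb1*, had 3021, 3382 and 3639 in KO and 3286, 3613 and 3698 in WT. The groups overlapped, the KO library was the lower in each pair, and the fitted log2 difference was −0.08 (95% interval −0.22 to 0.06). *H2-DMb1* had 516, 662 and 502 in KO and 513, 674 and 556 in WT, and its fitted log2 difference was −0.05 (95% interval −0.23 to 0.12). Here the values followed the pair more than the genotype, with both libraries of pair 2 above all others.

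*H2-Oa*, the α chain of the inhibitor of H2-DM, was the only member with a positive difference under the scaling of the authors and the only one that was higher in KO in all 3 pairs. Its sign stayed positive under every alternative scaling. It had 581, 701 and 625 normalized counts in KO and 550, 664 and 523 in WT, so the groups overlapped. The KO/WT ratio was 1.06, 1.06 and 1.20, and the fitted log2 difference was 0.14 (95% interval −0.04 to 0.31, unadjusted *p* = 0.103, adjusted *p* = 0.970 from limma). Its partner *H2-Ob* had 2065, 2620 and 2120 in KO and 2202, 2723 and 2156 in WT, with a fitted log2 difference of −0.06 (95% interval −0.19 to 0.08). The ratio of *H2-Ob* to *H2-Oa*, per kb of exon, was 0.929, 0.978 and 0.888 in KO and 1.05, 1.07 and 1.08 in WT, which do not overlap. The mean log2 difference of this ratio was −0.20 ± 0.077 (SD, n = 3 pairs), and this ratio, chosen after its values were seen, was not tested. An exact permutation over 3 pairs cannot give a 2-sided *p* below 0.25.

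**Figure D3:**
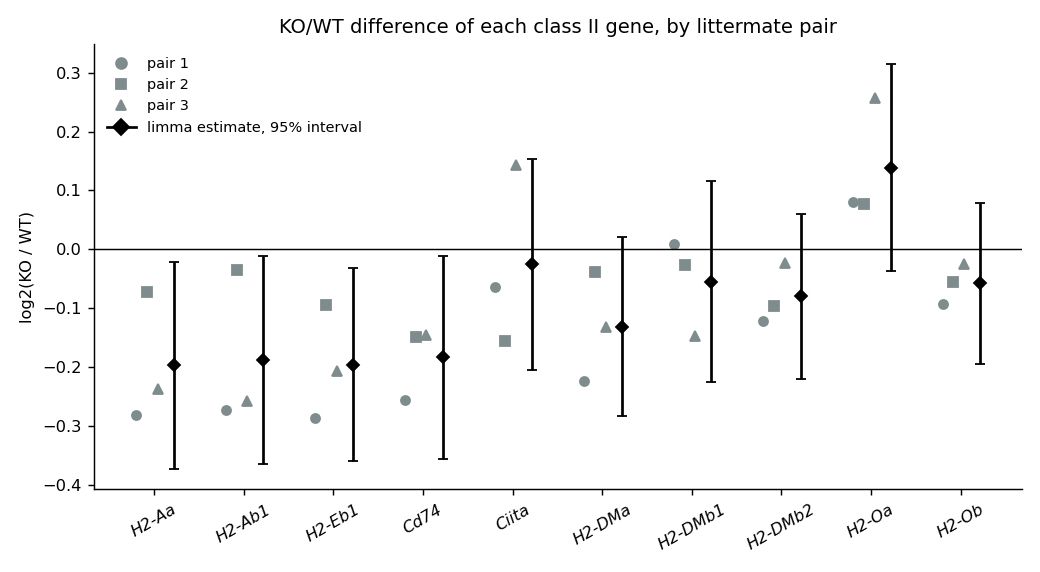
Difference of KO from WT on the log2 scale (y axis) of each of the 10 class II genes (x axis), with grey points for the 3 littermate pairs and a black diamond for the limma estimate with its 95% interval. The intervals of *H2-Aa*, *H2-Ab1*, *H2-Eb1* and *Cd74* end below 0, at −0.02 to −0.01 for 3 of them and −0.03 for *H2-Eb1*, although none passed adjustment and *H2-Aa* and *Cd74* changed sign under quantile normalization; *H2-Oa* lies above 0 in all 3 pairs.

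Over all 10 genes the median log2 difference was −0.11, beside 0.00067 over all genes tested, and 9 of 10 were negative, of which *H2-Aa*, *Cd74* and *Ciita* turned positive under quantile normalization and *Ciita* under total-count scaling. In all 3 pairs 7 members were lower in KO, beside 13.1% of all genes tested, and 1 was higher, beside 11.7%. The groups did not overlap for 2 members, *H2-Ab1* and *H2-Eb1*, both lower in KO, beside 3.44% of all genes. At an unadjusted *p* under 0.05, 4 members were lower, beside 3.03% of all genes, and 0 higher, beside 1.67%, and the 4 became 0 under total-count scaling and quantile normalization. These genes are transcribed under shared control and are not 10 separate observations. For pairs 1, 2 and 3 the median log2 ratio of the members was −0.17, −0.06 and −0.14, and that of all genes tested was −0.0093, 0.000025 and 0.0032. Standard errors of the members were 0.057 to 0.074, below the median of 0.12 over all genes.

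The ratios among the classical chains and *Cd74* show how even their levels were. The ratio of *H2-Ab1* to *H2-Aa* per kb was 0.801 to 0.949 in the 6 libraries, and its log2 difference between KO and WT was 0.01 ± 0.029 (SD, n = 3 pairs). The ratio of *H2-Eb1* to *H2-Ab1* was 1.35 to 1.61, with a log2 difference of −0.01 ± 0.055. *Cd74* exceeded *H2-Ab1* by 3.75 to 4.06 times per kb, with a log2 difference of 0.01 ± 0.11. For each of these ratios the mean log2 difference between genotypes was smaller than its SD over the 3 pairs.

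The differences between pairs, which are also the batches of the labels, were tested in the same limma fit. Over all genes, 142, or 1.15%, had an adjusted *p* under 0.05 for the pair, and 0 members did. At an unadjusted *p* under 0.05 there were 5 members, *H2-Ob*, *H2-DMb1*, *H2-Oa*, *H2-DMa* and *H2-DMb2*, beside 12.5% of all genes. The lowest was that of *H2-Ob* (unadjusted *p* = 0.0042, adjusted *p* = 0.143 from limma), which had 2620 and 2723 normalized counts in the libraries of pair 2 and 2065 to 2202 in the others. *H2-DMb1* followed (unadjusted *p* = 0.0077, adjusted *p* = 0.188), with 662 and 674 in pair 2 and 502 to 556 elsewhere. Without replicate 3 both passed, at adjusted *p* values of 0.024 and 0.030 from limma, in a fit in which 728 genes, or 5.91%, passed for the pair. The classical chains differed less between pairs, with adjusted *p* values of 0.563 to 0.747 from limma.

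A further class II gene set pair 2 apart from the other pairs. *H2-Ea-ps* (chromosome 17, 34341959 to 34344645, minus strand), the α chain that pairs with the product of *H2-Eb1*, is annotated as a polymorphic pseudogene, because the C57BL/6 strain does not transcribe it while strains such as CBA do. It had 3059 normalized counts in the KO library and 3443 in the WT library of pair 2. In pairs 1 and 3 it had 1 fragment in each KO library and 0 in each WT library. The difference between pairs passed in limma (adjusted *p* = 1.1e-04). In pair 2 its level per kb was 0.589 times that of *H2-Eb1* in KO and 0.622 times in WT. The level of *H2-Eb1* itself was 9740 and 10395 normalized counts in pair 2, beside 9898 to 12075 in the other libraries.

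Other H2 genes also differed in pair 2. *H2-D1*, a classical class I gene, had 7128 and 6735 normalized counts in the KO and WT libraries of pair 2 and 10233 to 12491 in the others (adjusted *p* = 0.022 from limma for the pair). *H2-Q6* (1000 and 942 against 1783 to 2149, adjusted *p* = 0.0028) and *H2-Q7* (720 and 724 against 1374 to 1638, adjusted *p* = 0.0037) were likewise lower in pair 2. *H2-Q1* had 117 and 111 in pair 2 and 0 fragments in the other 4 libraries (adjusted *p* = 0.011). Of the 13 tested genes of the list of other H2 genes, these 4 and *H2-Ea-ps* passed for the pair in limma, 0 passed for the genotype, and *H2-K1* and *H2-Eb2* passed for neither. *H2-Q5*, which was not on the list and was looked up after values were seen, had 225 and 227 in pair 2 and 476 to 515 elsewhere (adjusted *p* = 0.0060 from limma for the pair). *Gm20513*, a transcript annotated antisense to *H2-Eb1*, had 109 and 76.3 in pair 2 and 23.6 to 25.5 elsewhere (adjusted *p* = 0.037).

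Pair 2 was thus the only pair with *H2-Ea-ps* transcripts, and it was also the pair in which *H2-Aa*, *H2-Ab1* and *H2-Eb1* had the smallest KO/WT differences, at ratios of 0.951, 0.976 and 0.937. *H2-DMa* and *H2-Oa* also differed least in pair 2, whereas *Cd74*, *H2-DMb2* and *H2-Ob* differed least in pair 3 and *H2-DMb1* in pair 1, and *Ciita* had its largest difference, −0.16 on the log2 scale, in pair 2. Both of its libraries had *Xist* at 11636 and 11610 normalized counts and the Y-linked *Ddx3y* at 0, while the other 4 libraries had *Xist* at 0 to 6.61 and *Ddx3y* at 1285 to 1477. Sex, H2 type, litter and batch therefore cannot be told apart in these data, and their part in the genotype difference was not tested. Since reads were aligned to a reference made from C57BL/6J, genes with other alleles can lose fragments, and how much the class II genes did so was not tested.

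**Figure D4:**
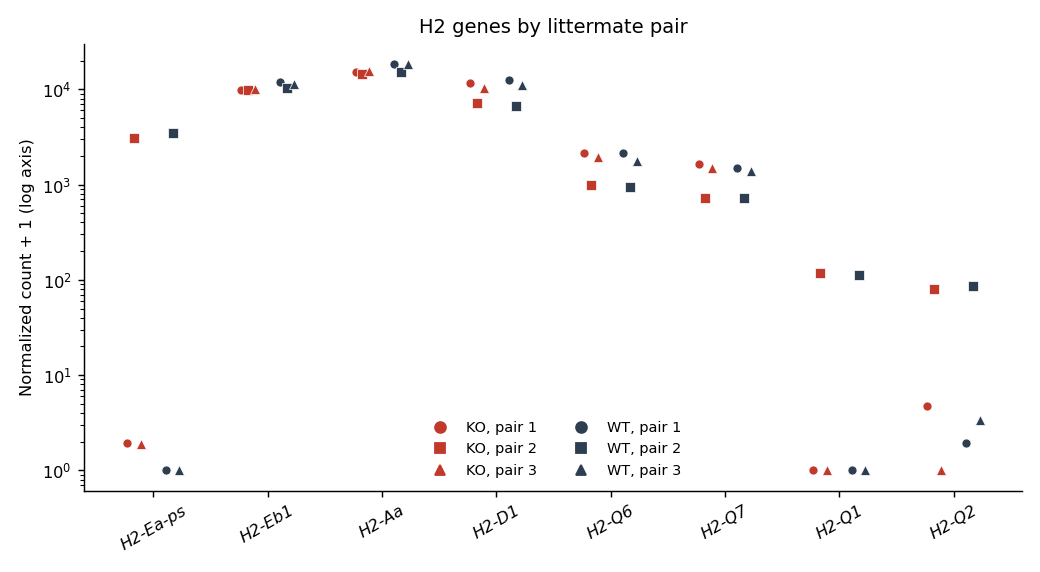
Normalized count + 1 (y axis, log scale) of *H2-Ea-ps*, 2 class II members and 5 class I genes (x axis), with 1 point per library, colored by genotype label and shaped by littermate pair. The 2 squares of pair 2 stand above 3000 for *H2-Ea-ps*, where the other 4 libraries have 0 or 1 fragment, and below the other pairs for *H2-D1*, *H2-Q6* and *H2-Q7*.

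The factors that act on class II promoters and on *Ciita* were read beside these genes. All 7 genes for RFX, CREB and NF-Y subunits passed the filter. In all 3 pairs 1 of them was lower in KO, beside 13.1% of all genes tested. The median log2 difference of the 7 genes was 0.0067, with 3 of 7 negative and 1 of 7 under total-count scaling. *Rfx5*, a subunit of RFX, had 514, 666 and 604 normalized counts in KO and 569, 692 and 518 in WT (log2 difference 0.01). All 8 regulators of *Ciita* passed the filter as well, and 1 was higher in KO in all 3 pairs, beside 11.7% of all genes tested. The median of these regulators was 0.11 with 2 of 8 negative. Under total-count scaling and quantile normalization their median was 0.14 and 0.12, with 0 of 8 negative. The median over all genes tested was 0.035 and 0.016 under these scalings. *Prdm1*, which encodes the repressor that silences *Ciita* in plasma cells, had 565, 207 and 286 in KO and 325, 206 and 409 in WT, so that KO was the higher in pair 1 and the lower in pair 3. *Pax5*, the factor of B cell identity that *Prdm1* represses, had 1671, 1772 and 1975 in KO and 1691, 1853 and 1334 in WT. No gene of these lists passed at an unadjusted *p* under 0.05 in limma.

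Markers of plasma cells, which lose class II, were also read in each library. The 7 genes of that list, of which 6 passed the filter, summed to 9457 to 17051 normalized counts in KO and 9079 to 19822 in WT. *Jchain*, which encodes the joining chain of secreted Ig, had 4744, 2171 and 2722 in KO and 3555, 2573 and 8096 in WT. The paper followed the decay of this mRNA along with light chain mRNAs, and reports a trend to shorter half-lives in KO. The level of *Jchain* therefore need not follow plasma cell content alone. For *Jchain* the KO library was above the WT library in pair 1 and below it in pair 3. *H2-Aa*, *H2-Ab1* and *H2-Eb1* were lower in KO in both pairs. By flow cytometry the paper reports more plasma cells in spleen and bone marrow of KO mice. It also reports faster differentiation of activated KO cells, at an earlier day of culture than the one read here. The part of plasma cell content in the class II values was not tested.

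Genes of antigen processing had a median log2 difference of −0.12, near that of the class II genes themselves. Of 11 listed, all passed the filter. In all 3 pairs 7 were lower in KO, beside 13.1% of all genes tested. At an unadjusted *p* under 0.05 in limma 3 were lower, beside 3.03% of all genes, and 0 passed adjustment. The list was chosen with earlier results of these data known. *Ctss*, the protease that removes most of the invariant chain in B cells, had 1888, 2275 and 2098 normalized counts in KO and 2510, 2341 and 2430 in WT, without overlap, and a log2 difference of −0.22 (unadjusted *p* = 0.032, adjusted *p* = 0.970 from limma). *Ctsh*, an aminopeptidase of lysosomes, had 1310, 1423 and 1498 in KO and 1527, 1547 and 1687 in WT, also without overlap (log2 difference −0.17, unadjusted *p* = 0.026 from limma). Of all genes tested, 3.44% had every KO library below every WT library. *Ctsd*, an aspartic protease of lysosomes, had 308, 266 and 281 in KO and 361, 302 and 435 in WT (log2 difference −0.35, unadjusted *p* = 0.018). In *Ctsd* pair 3 differed most, and in *Ctss* pair 1. These 3 genes and the median of the list stayed negative under the other scalings, the median being −0.083 under total-count scaling and −0.11 under quantile normalization.

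**Figure D5:**
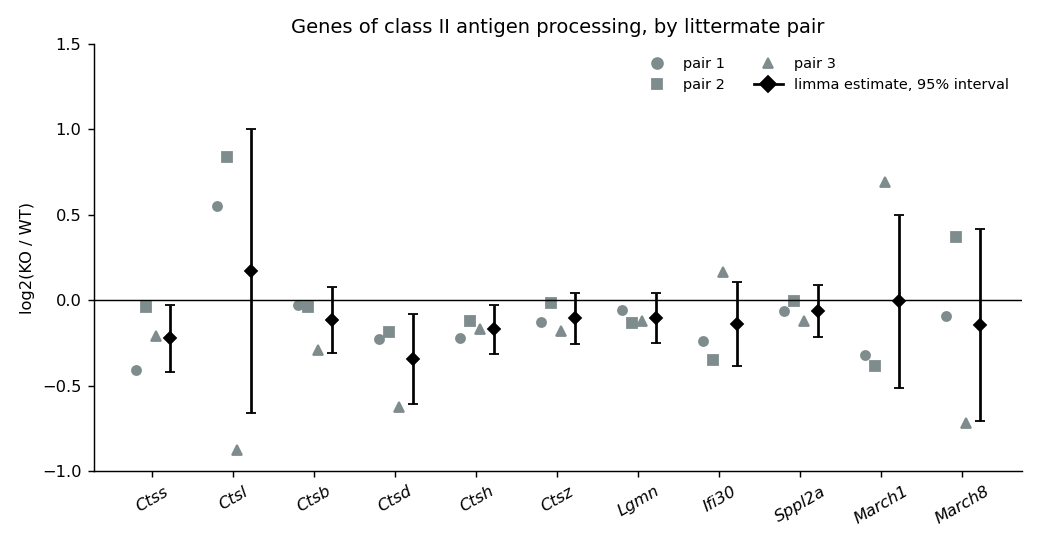
Difference of KO from WT on the log2 scale (y axis) of 11 genes of antigen processing (x axis), with grey points for the 3 littermate pairs and a black diamond for the limma estimate with its 95% interval. The intervals of *Ctss*, *Ctsd* and *Ctsh* end below 0, around estimates of −0.22, −0.35 and −0.17, and none passed adjustment.

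Costimulatory genes, whose products are presented to T cells beside class II, gave a median log2 difference of 0.04 over the 4 of 5 that passed the filter. *Cd86*, a ligand of CD28, had 985, 1172 and 1112 normalized counts in KO and 1129, 983 and 975 in WT, with overlap and a log2 difference of 0.08. No costimulatory gene was lower or higher in KO in all 3 pairs, beside 13.1% and 11.7% of all genes tested. B cell markers had a median of 0.0038 over 9 genes. Of these 1, *Cd79a*, was lower in KO at an unadjusted *p* under 0.05, beside 3.03% of all genes tested. It had 1219, 1320 and 1398 against 1531, 1611 and 1405 (log2 difference −0.21, unadjusted *p* = 0.039 from limma). The 5 tested markers of dendritic cells and macrophages had a median of −0.38, and 3 of them were negative: *Lyz2* (−0.54), *Cd68* (−0.50, unadjusted *p* = 0.051 from limma) and *Adgre1* (−0.38), all of macrophages and at no more than 85.9 normalized counts. Of these, *Cd68* was the lower in KO in each pair. *Lyz2* was the higher in KO in pairs 1 and 3, and its sign came from pair 2 (2.86 in KO, 27.2 in WT). The log2 ratios of *Adgre1* in pairs 1, 2 and 3 were 0.23, −1.17 and −0.20. *Flt3*, a receptor of dendritic cell precursors, was the higher in KO in all 3 pairs, with 541, 798 and 377 against 482, 428 and 294 (log2 difference 0.47, unadjusted *p* = 0.013, adjusted *p* = 0.930 from limma). Of all genes tested, 11.7% were higher in KO in all 3 pairs and 1.67% were higher at an unadjusted *p* under 0.05.

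The class II stretch of chromosome 17 also holds genes of the class I pathway. Between *H2-Oa* and *H2-Eb1* 9 other genes are annotated, and 5 protein-coding ones were tested: *Brd2*, a chromatin reader, *Psmb8* and *Psmb9*, subunits of the immunoproteasome, and *Tap1* and *Tap2*, the peptide transporter of the ER. Their log2 differences lay between −0.01 and 0.08, and their smallest unadjusted *p* was 0.208 in limma. *Brd2* lies after *H2-Oa* and overlaps the start of *H2-DMa* on the other strand, and the other 4 between *H2-DMb1* and *H2-Ob*. Before these 4 genes, *H2-Oa*, *H2-DMa*, *H2-DMb2* and *H2-DMb1* had log2 differences of 0.14, −0.13, −0.08 and −0.05, and after them *H2-Ob*, *H2-Ab1*, *H2-Aa* and *H2-Eb1* had −0.06, −0.19, −0.20 and −0.20. The difference between these genes and the 5 others was not tested.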

How the data were processed

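RNA of 6 B cell cultures (3 KO, 3 WT) was measured. The authors trimmed reads with cutadapt, aligned 75-nt read pairs with STAR (version 2.6.1a) to GRCm38, and counted strand-specific fragments with a mapping quality of at least 10 on Gencode vM19 genes with featureCounts (Subread 1.6.3). The deposited values are these counts divided by DESeq2 size factors, a signal on the scale of counts. All values above 0 (100%) were whole multiples of 1 step per library (tolerance 0.01 fragments), which returned the fragments (5393558 to 6793520 per library). Names and exons came from Gencode vM21, which matched 54409 of 54446 identifiers. No libraries were duplicates (chi-square per gene 4.44 to 22.0 over the 15 comparisons of libraries).

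The main test was limma (3.58.1, R 4.3.3, eBayes with trend, two-sided) on log2(normalized count + 1), with genotype and littermate pair, for genes averaging 10 normalized counts or more. Such fold changes understate those of low genes. The littermates given in the methods of the study pair the samples, and their deviations correlated at 0.328, 0.685 and 0.170. On simulated counts of 12322 genes with 200 changed, limma recovered 90 and 99 of 100 genes at log2 fold changes of 1 and 2, with 6 false calls. Each gene was simulated with the same dispersion (spread beyond counting error), so these shares need not hold for the real libraries. Alternatives were the pseudocount, filter, scaling, block, leaving out each replicate, edgeR (4.0.16) and DESeq2 (1.42.0) on the fragments. The members and gene lists were chosen with earlier results of these data known, and the promoter motifs and ratios between members after values were seen. Named genes are the members, list genes with an unadjusted *p* under 0.05, called for the pair or known for a role, coding genes between the members, and the 5 genes most correlated with the classical chains and *Cd74*.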

Additional observations from a re-analysis of the deposited data

How the results depend on the processing

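No member passed for the genotype under any of the 13 alternatives, and the smallest adjusted *p* of a member was 0.815. The median log2 difference of the members, −0.11, was −0.07 under total-count scaling and −0.039 under quantile normalization, and lay between −0.12 and −0.09 when each replicate in turn was dropped. The median over all genes tested moved as well, from 0.00067 to 0.035 under total-count scaling and 0.016 under quantile normalization. With no replicate block the median of the members was again −0.11, as it must be where each pair holds a KO and a WT library. In that fit 0 genes and 0 members passed, and 1 member had an unadjusted *p* under 0.05 in limma, beside 4 with the block. Under quantile normalization *H2-Aa* (0.025), *Cd74* (0.16) and *Ciita* (0.017) had the opposite sign, as *Ciita* did under total-count scaling (0.0086) and without replicate 2 (0.040). The cause was not tested. *H2-Ab1* stayed between −0.26 and −0.13 and *H2-Eb1* between −0.25 and −0.14, with unadjusted *p* values up to 0.171 and 0.148. Over all genes, DESeq2 called 22 lower and 1 higher where limma called 0. Leaving out a replicate gave 0 to 168 genes lower and 0 to 3 higher, the most without replicate 1, and 0 to 2 members for the pair, the 2 without replicate 3. Depth limits most the members with the fewest fragments, *H2-Oa* and *H2-DMb1*, and how much of a spread is counting error was not tested. Differences of the size seen in the classical chains are smaller than any fold simulated, so their absence from the calls does not show equal levels.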

Other observations

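The genes whose log2 levels over the 6 libraries were most like the mean of *H2-Aa*, *H2-Ab1*, *H2-Eb1* and *Cd74* were *Gsto1*, *Trmt1l*, *Btbd2*, *Iah1* and *Lrpap1*, with Pearson's r of 0.987 to 0.977 across libraries. They were the 5 highest of 9574 genes compared, and values this high can arise from searching so many genes over 6 libraries. After the mean of each pair was subtracted, they were *Nudt1*, *Commd4*, *Sap30bp*, *Ptprcap* and *Tmem230*, with r of 1.000 to 0.999, which rests on only 3 differences between KO and WT. The 10 members were left out of both searches. *Lrpap1*, a chaperone of the ER named here after its values were seen, had 195, 202 and 230 normalized counts in KO and 289, 236 and 285 in WT, without overlap. Every KO library lay below every WT library for 3.44% of all genes tested. *Lrpap1* was found by its likeness to genes lower in KO, so this separation follows in part from the search.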
